A study of Homo sapiens with 2 samples.

Results

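The genes described here are 36 genes of glycolysis and of the transcriptional response to low oxygen, measured in 2 drug-resistant sublines of the human ovarian carcinoma cell line A2780. They were chosen by name: every array probe whose gene name was on a list of oxygen-sensing factors, glucose transporters, glycolytic enzymes and their regulators, and other hypoxia-inducible genes was taken. All 36 of 36 listed genes were on the array, with 61 of its 41000 probes and among 30238 gene names. A2780CBN was selected with rising doses of carboplatin, a platinum drug that crosslinks DNA, up to 22.2 µM. A2780CBNDXL was selected with carboplatin together with docetaxel, a taxane that stabilises microtubules. The labels put its last dose at 8.02 µM of the combination, the study's text gives another, and the labels do not say how it was split between the drugs. The methods state that doses were raised stepwise and that a drug-free A2780 culture was carried along beside each resistant line. Both of these co-cultured controls have the name A2780CC in the labels.

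Each line was 1 sample, an RNA pool of 3 isolations, hybridized together with control RNA on 4 two-colour arrays. A forward and a reverse labelled array lay on each of 2 slides, and every slide held both lines. The spread over the 4 arrays is therefore the error of labelling and hybridization, not of separate cultures, and no test between cultures was possible. In pooled RNA from a whole culture, fewer cells carrying a transcript and less transcript per cell cannot be told apart. A value of 1 on the log2 scale is a 2-fold difference. A gene was counted as higher or lower in a line when its mean log2 ratio of resistant over control was at least 1 in size, had the same sign on all 4 arrays, and at least 1 of both channels stood well above background on all 4 arrays. Each gene was read from its brightest probe. Array values are given in the order forward and reverse on slide 1, then forward and reverse on slide 2, as log2 ratios of resistant over control.

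The sign of every ratio rests on the labels of the forward arrays, where Cy5 marked the resistant line. The reverse arrays have the same dye entries but are named as reverse labelled, and before they were turned over they correlated with the forward arrays at -0.61 to -0.58 in A2780CBN and at -0.74 to -0.73 in A2780CBNDXL over all probes. They were turned over for all results. Between 59.8 and 67.5% of probes were well above background and no spot was saturated. On array 1 of A2780CBNDXL the spike-in controls varied by at least 19.5% in either channel, against 3.56 to 4.87% on the other 7 arrays. Leaving that array out changed none of the 17 members counted in that line. Of 7 markers of ovarian carcinoma epithelium, PAX8, EPCAM, KRT8 and KRT18 were above background in both lines and controls, and WT1, CDH1 and MUC16 on no array. EPCAM was higher than the control in each line (2.07 and 1.67) and KRT18 in A2780CBN (1.05 and 0.51), while PAX8 (0.21 and 0.33) and KRT8 (-0.37 and 0.18) stayed inside 2-fold. The summed scaled signal of the 7 was 3809 to 4301 in A2780CBN against 2215 to 2506 in its control, and 3459 to 3848 in A2780CBNDXL against 2356 to 2496.

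Glycolysis splits glucose into pyruvate in the cytosol and yields ATP without oxygen. Cells short of oxygen depend on it more, and the switch is largely transcriptional. Prolyl hydroxylases of the EGLN family mark the alpha subunits HIF1A and EPAS1 for degradation while oxygen is present. When oxygen falls, the stabilised subunits pair with ARNT and bind a short DNA core, ACGTG or GCGTG, near glucose transporters, glycolytic enzymes, the pyruvate dehydrogenase kinases, CA9, ADM, BNIP3 and many other genes. Tumour cells often keep part of this programme running in air.

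The core was searched on both strands of promoter windows from RefSeq on GRCh38.p14, which run from 250 bases before to 50 bases after a gene start. The window furthest upstream was used for genes with several, and the palindrome CACGTG counts once on each strand. A match describes letters, not a bound site. Windows were given for 32 of the 36 members. No window was at hand for SLC2A3, VEGFA, NDRG1 and BNIP3L. Of these 32 members 24 (75.0%) held ACGTG or GCGTG, against 48.4% of 27305 promoters. For ACGTG alone the shares were 15 of 32 (46.9%) and 21.6%. Among the 14 members with a window that were lower in A2780CBNDXL, 12 held either core, and among the 18 others 12 did.

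The 250 bases before the gene start are shown for the 7 members with the most negative ratios in A2780CBNDXL, since their promoters show how unevenly the core is spread over genes that were low together. Capitals mark ACGTG and GCGTG on either strand. The windows lie on GRCh38.p14 at chr11:10304823-10305072 (plus strand, ADM), chr9:35673678-35673927 (plus, CA9), chr2:74833877-74834126 (plus, HK2), chr2:172555123-172555372 (plus, PDK1), chr12:6914330-6914579 (plus, ENO2), chr1:42958869-42959118 (minus, SLC2A1) and chr17:28576896-28577145 (minus, ALDOC).
ADM: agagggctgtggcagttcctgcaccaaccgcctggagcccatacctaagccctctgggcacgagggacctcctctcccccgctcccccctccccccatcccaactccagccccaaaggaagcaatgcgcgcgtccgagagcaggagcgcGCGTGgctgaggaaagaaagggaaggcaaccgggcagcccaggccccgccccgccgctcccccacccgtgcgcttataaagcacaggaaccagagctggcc
CA9: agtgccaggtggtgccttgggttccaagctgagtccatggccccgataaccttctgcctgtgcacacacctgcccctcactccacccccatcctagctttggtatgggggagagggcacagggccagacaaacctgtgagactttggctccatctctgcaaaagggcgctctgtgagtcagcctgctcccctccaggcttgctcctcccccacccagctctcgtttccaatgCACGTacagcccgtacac
HK2: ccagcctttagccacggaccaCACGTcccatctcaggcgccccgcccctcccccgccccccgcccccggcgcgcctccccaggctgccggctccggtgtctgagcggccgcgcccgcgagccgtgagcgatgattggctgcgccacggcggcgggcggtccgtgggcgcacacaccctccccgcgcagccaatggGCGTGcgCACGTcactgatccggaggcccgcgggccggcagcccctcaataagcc
PDK1: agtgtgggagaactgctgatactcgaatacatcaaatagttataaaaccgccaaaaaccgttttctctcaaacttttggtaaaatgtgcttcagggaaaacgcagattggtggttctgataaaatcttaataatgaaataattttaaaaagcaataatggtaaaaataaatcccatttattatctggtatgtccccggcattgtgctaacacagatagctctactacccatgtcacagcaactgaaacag
ENO2: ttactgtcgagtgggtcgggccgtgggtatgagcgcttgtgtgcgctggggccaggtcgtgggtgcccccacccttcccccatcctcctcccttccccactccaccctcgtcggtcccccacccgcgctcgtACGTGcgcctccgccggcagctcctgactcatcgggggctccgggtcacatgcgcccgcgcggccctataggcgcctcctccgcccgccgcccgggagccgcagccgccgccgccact
SLC2A1: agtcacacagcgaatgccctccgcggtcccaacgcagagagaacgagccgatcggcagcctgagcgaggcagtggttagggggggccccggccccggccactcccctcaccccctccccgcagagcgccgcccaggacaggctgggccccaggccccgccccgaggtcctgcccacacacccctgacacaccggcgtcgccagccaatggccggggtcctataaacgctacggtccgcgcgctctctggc
ALDOC: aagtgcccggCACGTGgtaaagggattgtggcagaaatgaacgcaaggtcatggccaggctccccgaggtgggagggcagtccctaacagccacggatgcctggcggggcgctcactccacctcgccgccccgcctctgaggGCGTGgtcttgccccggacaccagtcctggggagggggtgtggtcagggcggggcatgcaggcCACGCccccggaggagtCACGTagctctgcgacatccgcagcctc

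ALDOC held 5 matches in its window, HK2 held 3, and ADM, CA9 and ENO2 held 1 each. In CA9 the match began 18 bases before the gene start. PDK1 held none in the window furthest upstream, and the match of SLC2A1 began at base 26 of the transcript, outside the stretch shown.

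Probes that cross an intron are shown for CA9, P4HA1 and P4HA2 because the value of the first rests on a dim probe and the other pair are related enzymes. Their hg18 coordinates cover 1388, 3246 and 3615 bases at chr9:35667817-35669204, chr10:74440781-74444026 and chr5:131567741-131571355, so each 60-base probe reads spliced RNA.
CA9 probe: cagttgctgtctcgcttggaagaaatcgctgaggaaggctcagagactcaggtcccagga
P4HA1 probe: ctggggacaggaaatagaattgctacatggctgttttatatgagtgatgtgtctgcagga
P4HA2 probe: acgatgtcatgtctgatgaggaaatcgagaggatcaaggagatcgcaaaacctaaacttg

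The longest run of letters shared by the P4HA1 and P4HA2 probes was 7 bases.

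In A2780CBN, 31 members could be compared with the control. Of these, 5 were higher and 6 were lower, a share of 16.1% and 19.4%. Over all 17951 genes compared, 8% were higher and 4.55% were lower. The median log2 ratio was -0.23 over the 31 members and -0.06 over all genes. The higher members were EPAS1, ALDOC, NDRG1, MXI1 and P4HA2, and the lower members were HIF1A, SLC2A3, HK2, ENO2, PDK1 and BNIP3. EPAS1 and NDRG1 passed the filter only through the resistant line, because their controls were not well above background, so they could only be counted as higher. EGLN3 and CA9 were too dim in both channels, and SLC2A1, ENO1 and LDHB had lost 1 array to an outlier mark. With another background correction (normexp with an offset, then loess) 4 of the 11 kept a 2-fold mean, and HIF1A (-0.87), EPAS1 (0.96), SLC2A3 (-0.83), ENO2 (-0.18), PDK1 (-0.71), NDRG1 (0.44) and MXI1 (0.97) did not.

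In A2780CBNDXL the members lay mostly below the control. Of 31 members compared, 1 (NDRG1) was higher and 16 were lower, a share of 3.23% and 51.6%, against 7.7% and 9.2% of all 17116 genes compared. The lower members were HIF1A, EGLN1, SLC2A1, SLC2A3, HK2, ALDOC, PGK1, ENO2, PFKFB3, PDK1, PDK3, CA9, VEGFA, ADM, ANKRD37 and MXI1. Their median was -1.08 over the 31 members and 0.04 over all genes, and 28 of the 31 had a mean below 0. CA9 passed through its control alone. EPAS1 and EGLN3 were too dim here, and ALDOA, PFKFB4 and BNIP3 had lost 1 array. With normexp and loess 11 of the 17 kept a 2-fold mean, and HIF1A (-0.99), PDK3 (-0.95), CA9 (-0.74), VEGFA (-0.78), NDRG1 (0.48) and MXI1 (-0.79) did not.

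**Figure D1:**
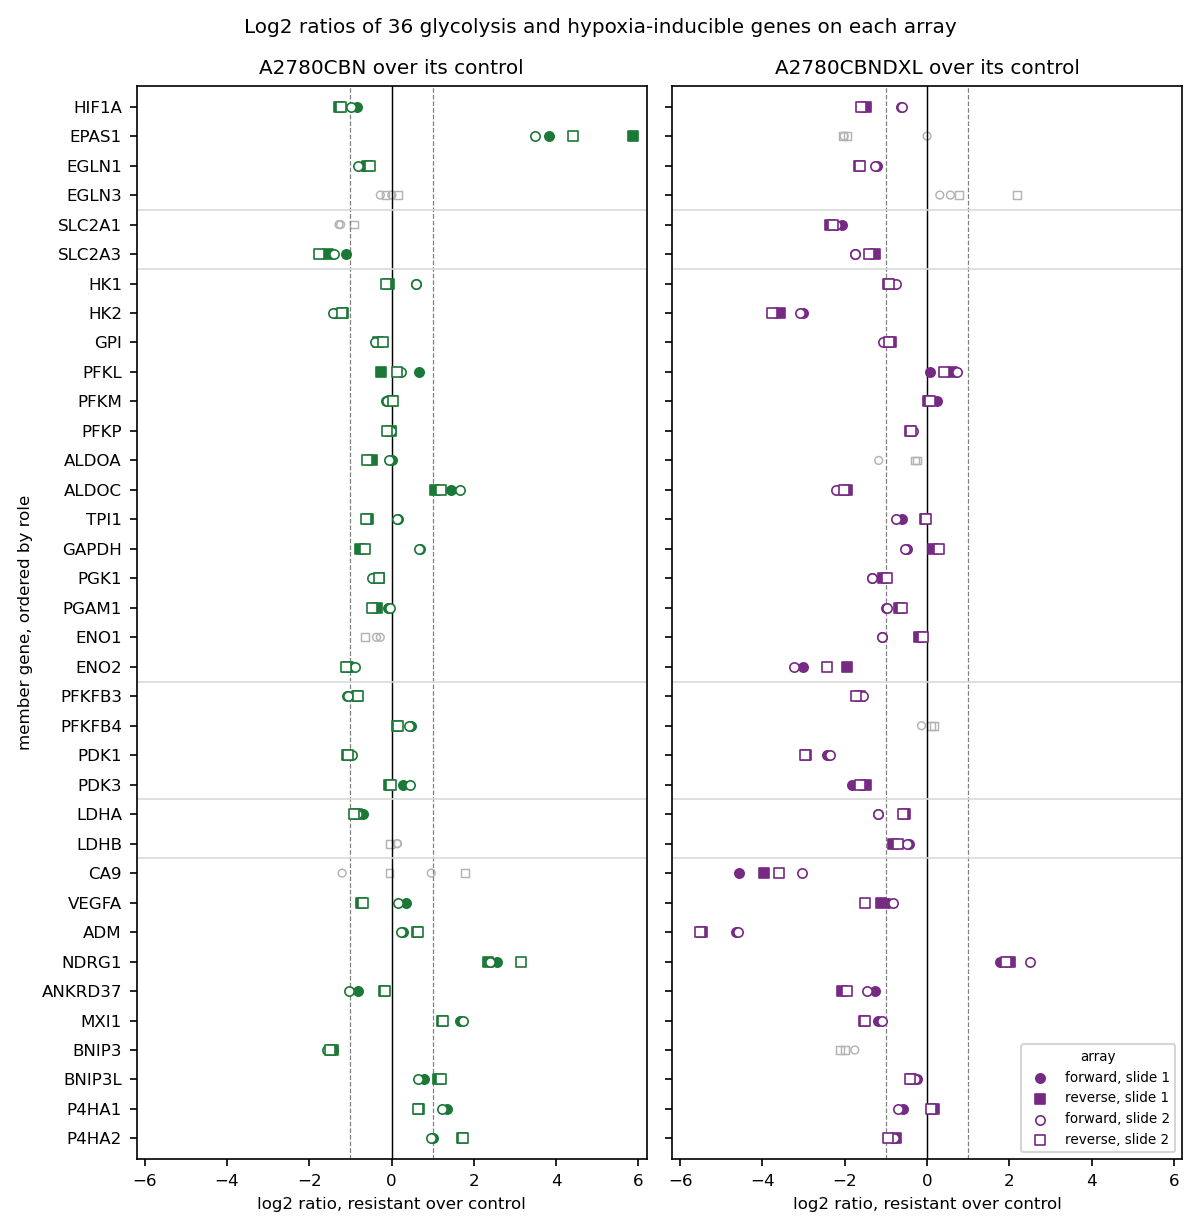
Log2 ratio of resistant over control (x axis) for the 36 members (y axis, ordered by role) on each of the 4 arrays, with A2780CBN on the left and A2780CBNDXL on the right. Circles are forward and squares reverse labelled arrays, filled symbols are slide 1 and open symbols slide 2, grey symbols are members too dim or with 1 array lost, and dashed lines mark 2-fold. On the right 28 of the 31 members compared have a mean below 0, and ADM lies lowest at -5.05.

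Among the oxygen sensors, HIF1A was about 2-fold lower than the control in each line. HIF1A, the alpha subunit that is stabilised first in low oxygen (probe at chr14:61284598-61284657, hg18), had log2 ratios of -0.85, -1.27, -0.98 and -1.23 in A2780CBN (mean -1.08, SD 0.20, 4 arrays). In A2780CBNDXL they were -0.62, -1.48, -0.61 and -1.60 (mean -1.08, SD 0.53). All 8 arrays were below 0, and in A2780CBNDXL the forward arrays gave a smaller difference than the reverse arrays.

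EPAS1, the alpha subunit also named HIF-2 alpha, was well above background on all 4 arrays in A2780CBN alone of the 4 RNAs, by 1 of its 2 probes. Its log2 ratios there were 3.83, 5.88, 3.48 and 4.41 (mean 4.40, SD 1.06), and its signal was 358, against 17 in a control that stood clear of background on none of 4 arrays. Counted against the lowest signal that stood above background, it was at least 14.8-fold higher. The other probe stayed at background on every array, with signals of 7.23 and 5.37 in A2780CBN and its control. The mean of both probes was 2.41, and with normexp and loess the brighter probe gave 0.96, short of 2-fold. In A2780CBNDXL the signal was 6.78 in the line, at background throughout, and 19.1 in its control, above background on 1 array, so no ratio is given. Compared directly after scaling between arrays, EPAS1 was at least 18.2-fold lower in A2780CBNDXL than in A2780CBN.

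EGLN1, the main oxygen-dependent hydroxylase and itself a HIF target, was lower in A2780CBNDXL at -1.21, -1.66, -1.27 and -1.62 (mean -1.44, SD 0.23). In A2780CBN it had a mean of -0.66 (SD 0.12), short of 2-fold. Its other 2 probes gave -1.03 and -1.25 in A2780CBNDXL, so all 3 probes were past 2-fold in that line. EGLN3, an inducible hydroxylase, stayed at background on every array.

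Both glucose transporters were lower in A2780CBNDXL. SLC2A1, the GLUT1 carrier of most tumour cells, had ratios of -2.06, -2.35, -2.21 and -2.27 (mean -2.23, SD 0.12) in A2780CBNDXL. In A2780CBN the 3 arrays left gave -1.24, -0.92 and -1.28 (mean -1.09), which the rule on 4 arrays did not count. SLC2A3, the high-affinity GLUT3 carrier, gave -1.12, -1.56, -1.39 and -1.77 in A2780CBN (mean -1.46, SD 0.28) and -1.75, -1.26, -1.76 and -1.41 in A2780CBNDXL (mean -1.54, SD 0.25). Its second probe, which crosses an intron, gave -1.06 and -1.25.

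Of the 14 glycolytic enzymes, 13 could be compared in each line. In A2780CBN 1 was higher and 2 were lower, with a median of -0.23. In A2780CBNDXL none was higher and 4 were lower, with a median of -0.81. The shares were 7.69% higher and 15.4% lower in A2780CBN, where 8% and 4.55% of all genes were, and 30.8% lower in A2780CBNDXL, where 9.2% of all genes were. The lower enzymes were HK2, ENO2, ALDOC and PGK1, and the remaining 9 lay between -0.96 and 0.46.

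HK2, the inducible hexokinase that traps glucose in the cell (chr2:74973839-74973898, hg18), had the most negative ratio of the glycolytic enzymes in both lines. Ratios were -1.35, -1.18, -1.43 and -1.20 in A2780CBN (mean -1.29, SD 0.12), with signals of 2537 against 6194. In A2780CBNDXL they were -3.01, -3.58, -3.07 and -3.76 (mean -3.35, SD 0.37), with 1160 against 11868. The arrays of both lines did not overlap. A second, dimmer probe gave -1.42 and -3.12. HK1, the constitutive hexokinase, had means of 0.25 (SD 0.40) and -0.87 (SD 0.09). Its ratios of 0.60, -0.07, 0.58 and -0.13 in A2780CBN differed in sign between labelling directions, while those of A2780CBNDXL were all from -0.95 to -0.76.

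ALDOC, the aldolase isoform typical of brain (chr17:23924550-23924609, hg18), was higher in A2780CBN and lower in A2780CBNDXL. The ratios were 1.44, 1.06, 1.65 and 1.20 (mean 1.34, SD 0.26) in A2780CBN and -2.08, -1.94, -2.22 and -2.03 (mean -2.07, SD 0.12) in A2780CBNDXL. The ratios of the lines stood -3.41 apart, well outside the spread of the arrays. Signals were 1430 in A2780CBN and 565 in its control, and 517 in A2780CBNDXL and 2169 in its control. The ubiquitous aldolase ALDOA gave a signal of 41659 in A2780CBN and had a mean of -0.28 there. On its 3 arrays in A2780CBNDXL the mean was -0.72, while a second ALDOA probe gave 0.48 with all 4 arrays above 0. The probes of ALDOA thus disagreed in sign.

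ENO2, the neuronal enolase, was faint in A2780CBN (39.1 against 79.2, ratios -1.0, -1.06, -0.90 and -1.11, mean -1.02). It was brighter in A2780CBNDXL (98.8) and brightest in that line's control (620), with ratios of -3.01, -1.94, -3.23 and -2.42 (mean -2.65, SD 0.59). Without array 1 the A2780CBN value was -0.99, just short of 2-fold. ENO1, the main enolase, had a mean of -0.48 on 3 arrays of A2780CBN and -0.62 (SD 0.54) in A2780CBNDXL.

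PGK1, which makes the first ATP of the payoff phase, had ratios of -1.33, -1.06, -1.34 and -0.96 in A2780CBNDXL (mean -1.17, SD 0.19) and from -0.48 to -0.30 in A2780CBN (mean -0.38). Its other 3 probes lay between -1.68 and -0.91 in A2780CBNDXL, the last on 3 arrays. The abundant enzymes of the same stretch stayed inside 2-fold in both lines: GPI (-0.31 and -0.96), TPI1 (-0.23 and -0.36), GAPDH (-0.01 and -0.14) and PGAM1 (-0.24 and -0.81). GAPDH, widely used as a loading control, gave 0.68, -0.76, 0.66 and -0.64 in A2780CBN. Its sign followed the labelling direction, so the mean near 0 is an average of opposite values. The phosphofructokinases PFKL, PFKM and PFKP, which catalyse the committed step, had means of at most 0.19 in size in A2780CBN and of -0.39, 0.11 and 0.46 for PFKP, PFKM and PFKL in A2780CBNDXL.

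Of 4 regulators of glycolytic flux, 3 could be compared in A2780CBNDXL and all 3 were lower than the control, where 9.2% of all genes were. The other, PFKFB4, had lost 1 array and lay near the control on the 3 left. PDK1, the kinase that shuts pyruvate dehydrogenase and keeps pyruvate out of the mitochondria (chr2:173171519-173171578, hg18), had ratios of -1.02, -1.07, -0.96 and -1.06 in A2780CBN (mean -1.03, SD 0.05). In A2780CBNDXL they were -2.44, -2.95, -2.36 and -2.96 (mean -2.68, SD 0.32). A second probe gave -1.07 and -2.71. PDK3, a kinase of the same family, gave -1.83, -1.47, -1.59 and -1.62 in A2780CBNDXL (mean -1.63, SD 0.15) and 0.28, -0.05, 0.45 and -0.01 in A2780CBN (mean 0.17).

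PFKFB3, which makes the allosteric activator fructose 2,6-bisphosphate, had ratios of -1.67, -1.63, -1.55 and -1.74 in A2780CBNDXL (mean -1.65, SD 0.08). In A2780CBN its mean was -0.95 (SD 0.14), just short of 2-fold. Another 2 probes gave -1.45 and -1.26 in A2780CBNDXL, whereas the probe at chr10:6314902-6314961 (hg18) gave -0.07, a difference of 1.57. PFKFB4, a related enzyme, was near the control, at 0.29 in A2780CBN and between -0.13 and 0.17 on 3 arrays of A2780CBNDXL.

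Both lactate dehydrogenases stayed inside 2-fold. LDHA, which turns pyruvate into lactate, had means of -0.82 (SD 0.09) in A2780CBN and -0.87 (SD 0.37) in A2780CBNDXL, with all 8 arrays below 0. A second LDHA probe gave -0.85 and -1.17, and another, whose hg18 coordinates lie on chromosome 9 rather than 11, gave -0.64 and -0.55. LDHB had -0.61 (SD 0.18) in A2780CBNDXL.

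The hypoxia-inducible genes outside glycolysis held the widest values. ADM, the vasodilator peptide adrenomedullin (chr11:10285356-10285415, hg18), had 0.27, 0.62, 0.23 and 0.65 in A2780CBN (mean 0.44, SD 0.22). In A2780CBNDXL it had -4.63, -5.46, -4.59 and -5.53 (mean -5.05, SD 0.51), a signal of 142 against 4728. This was the most negative ratio of any member, 33.2-fold below the control. CA9, a membrane carbonic anhydrase, had -4.57, -3.97, -3.03 and -3.59 in A2780CBNDXL (mean -3.79, SD 0.65). Its signal was 197 in that control and 14.2 in the line, which was well above background on 1 of 4 arrays. In A2780CBN it was 10.6 against 8.15, at background.

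VEGFA, the main angiogenic growth factor, was lower in A2780CBNDXL at -0.95, -1.11, -0.83 and -1.5 (mean -1.1, SD 0.29). Without array 4 the mean was -1.0, just inside 2-fold, and its other 3 probes gave -0.67 to -1.42. In A2780CBN the 4 probes gave -0.51 to -0.12. ANKRD37, an ankyrin repeat gene induced by HIF, had -1.27, -2.06, -1.45 and -1.95 in A2780CBNDXL (mean -1.68, SD 0.38) and a mean of -0.55 (SD 0.45) in A2780CBN.

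NDRG1, a stress-inducible growth-arrest gene, was the member higher than the control in each line, by 1 of its 2 probes. Its ratios were 2.56, 2.34, 2.40 and 3.14 in A2780CBN (mean 2.61) and 1.77, 2.03, 2.5 and 1.93 in A2780CBNDXL (mean 2.06, SD 0.31). Signals were low, 127 and 160 in the lines against 20.8 and 38.5 in the controls. Against background, the A2780CBN value was at least 5.46-fold. The other probe was at or near background, with signals of 10.4 and 7.95 in A2780CBN and its control and of 12.9 and 11.7 in A2780CBNDXL and its control (log2 ratio 0.15). With normexp and loess the brighter probe gave 0.44 and 0.48, so neither line kept the 2-fold difference.

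MXI1, an antagonist of MYC induced in hypoxia, had 1.66, 1.23, 1.73 and 1.26 in A2780CBN (mean 1.47, SD 0.26) and -1.19, -1.54, -1.09 and -1.5 in A2780CBNDXL (mean -1.33, SD 0.23). P4HA2, a collagen prolyl hydroxylase, had 1.01, 1.71, 0.96 and 1.73 in A2780CBN (mean 1.35, SD 0.43) and -0.79, -0.76, -0.79 and -0.94 in A2780CBNDXL (mean -0.82, SD 0.08). Its intron-crossing probe gave 1.36 and -0.48. P4HA1, its paralogue, had 1.35, 0.66, 1.22 and 0.63 in A2780CBN (mean 0.96) and -0.58, 0.16, -0.70 and 0.09 in A2780CBNDXL (mean -0.26). For these 3 genes the arrays of both lines did not overlap.

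The mitophagy receptors BNIP3 and BNIP3L parted. BNIP3 was lower in A2780CBN at -1.42, -1.43, -1.57 and -1.49 (mean -1.48, SD 0.07), and its 3 arrays in A2780CBNDXL gave -1.75, -2.11 and -2.0. BNIP3L had 0.78, 1.12, 0.64 and 1.19 in A2780CBN (mean 0.93) and -0.24, -0.40, -0.30 and -0.42 in A2780CBNDXL (mean -0.34, SD 0.09). Its second probe gave 0.96 and -0.34.

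Set side by side, the ratio was lower in A2780CBNDXL than in A2780CBN by 2-fold or more, with no overlap of arrays, for 12 of the 27 members compared in both lines, and higher for none. The genes were HK1, HK2, ALDOC, ENO2, PDK1, PDK3, ADM, ANKRD37, MXI1, BNIP3L, P4HA1 and P4HA2. Over all 16131 genes compared in both lines the shares were 10.4% lower and 5.95% higher. The gap was widest for ADM, at -5.49 on the log2 scale. This direction depended on the controls. With the controls exchanged between the lines, the ratios of 10 of the 27 members differed, a count without a share of all genes beside it. The ratio was higher in A2780CBNDXL for 8 (EGLN1, SLC2A3, PFKP, ENO2, PDK1, NDRG1, ANKRD37 and BNIP3L) and lower for 2. The exchange reverses the sign with which the difference between the controls enters. A gene with more signal in the control of A2780CBNDXL therefore moves upward by construction, whatever the lines themselves do. ADM and MXI1 were the 2 that were lower either way.

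Part of that gap lay in the controls. After the channels were scaled between arrays (Aquantile), the control of A2780CBNDXL was compared with the control of A2780CBN on arrays of the same slide and labelling direction. Of 28 members compared, 11 were higher in the control of A2780CBNDXL, with a mean difference of at least 2-fold and the same sign on all 4 such pairs of arrays, and none was lower. The genes were EGLN1, PFKP, ALDOC, ENO2, PDK1, CA9, ADM, ANKRD37, BNIP3L, P4HA1 and P4HA2. The 11 are 39.3% of the members, where 3.17% of all 16871 genes were higher and 1.43% were lower. CA9 passed the filter only through the control of A2780CBNDXL and could only be counted as higher. The median difference was 0.82 for the members and -0.02 for all genes.

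Between both resistant lines, the members differed less. A2780CBNDXL was higher than A2780CBN for 2 of 28 members (PFKP and ENO2) and lower for 5 (EPAS1, HK2, ALDOC, ADM and MXI1), against 6.42% and 10.1% of all 17083 genes. EPAS1 passed the filter only through A2780CBN and could only be counted as lower. The median difference over the 28 members was -0.04. PDK1 shows the pattern: signals were 907 in A2780CBN and 961 in A2780CBNDXL, while their controls had 1853 and 6148. After scaling, PDK1 differed by -0.07 (SD 0.09) between the lines and by 1.57 (SD 0.21) between the controls. PGK1 differed by 0.02 (SD 0.08) between the lines and by 0.81 (SD 0.16) between the controls. CA9 was at least 8.43-fold higher in the control of A2780CBNDXL, since the other control stood clear of background on none of 4 arrays.

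ADM and ALDOC were past 2-fold in both respects, lower in the line and higher in its control. ADM was 3.94 lower in A2780CBNDXL than in A2780CBN (SD 0.26) and 1.56 higher in its control (SD 0.49). ALDOC was 1.60 lower (SD 0.20) in the line and 1.81 higher (SD 0.40) in its control. HK2 was 1.31 lower (SD 0.16) in the line and 0.76 higher (SD 0.39) in its control, the latter short of 2-fold. ENO2 and PFKP were past 2-fold higher in both the line and its control. PFKP, the platelet phosphofructokinase, had a ratio near 0 in both lines, yet its signals were 1770 and 1838 in A2780CBN and its control and 6595 and 8630 in A2780CBNDXL and its control. VEGFA differed by -0.02 (SD 0.36) between the controls. Of the 16 members lower in A2780CBNDXL, 15 had a higher mean in that line's control than in the other control. Of all 1575 genes lower in A2780CBNDXL, 1175 did. That control also entered the ratio by which both sets were selected, so such an excess is partly built in. SLC2A1, among the 15, had lost 1 array in A2780CBN and was not compared between the controls under the rule. What set the controls apart was not tested.

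**Figure D2:**
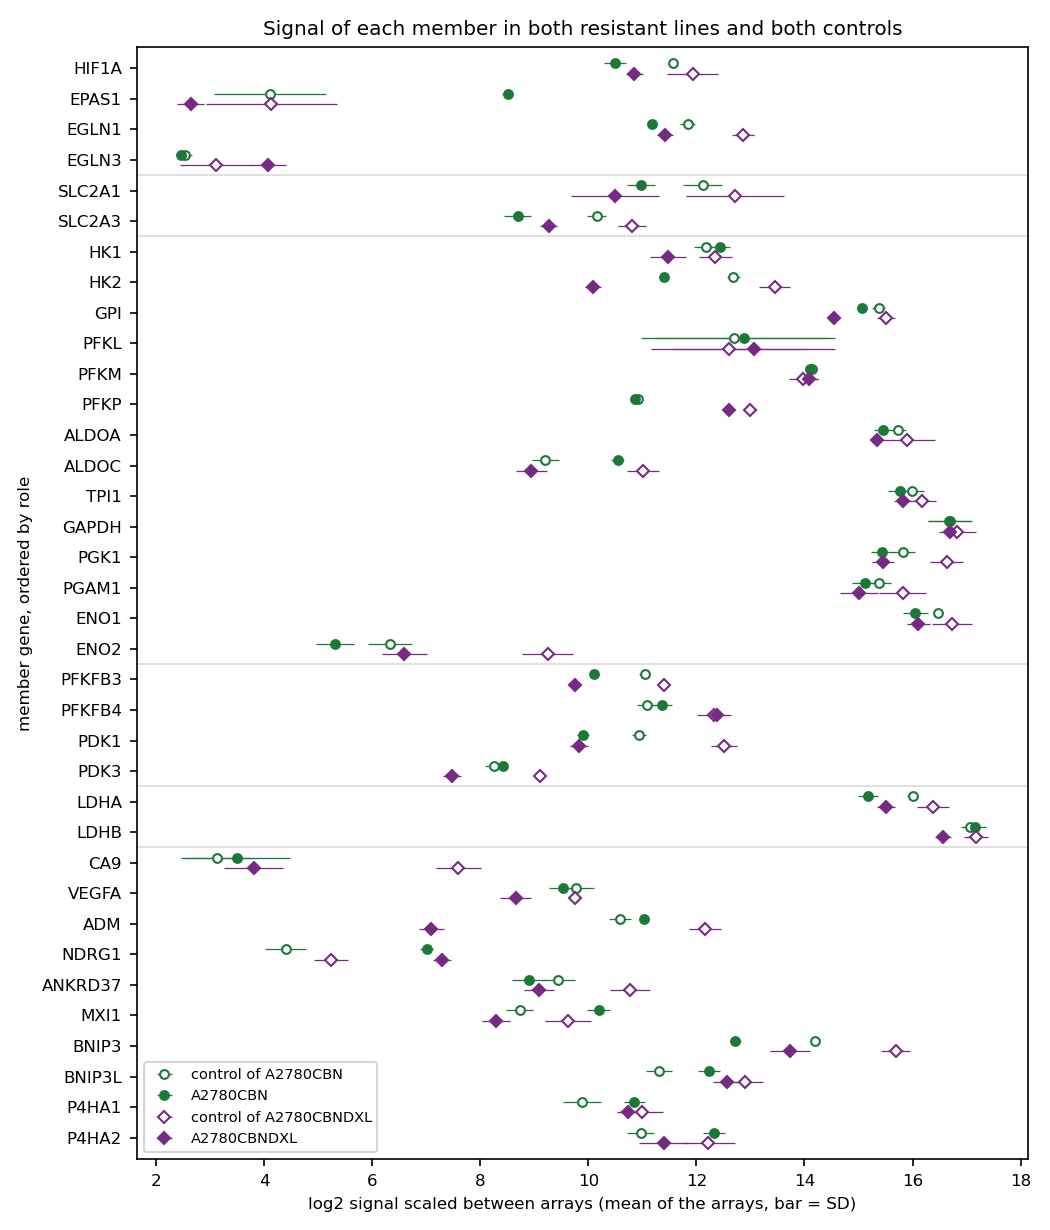
Signal on the log2 scale after scaling between arrays (x axis, mean of the arrays, bars SD over arrays) for each member (y axis) in A2780CBN (filled circles), its control (open circles), A2780CBNDXL (filled diamonds) and its control (open diamonds). For PDK1 the filled symbols nearly coincide while the open symbols lie 1.57 apart, and for ADM the filled diamond stands 3.94 below the filled circle.

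**Figure D3:**
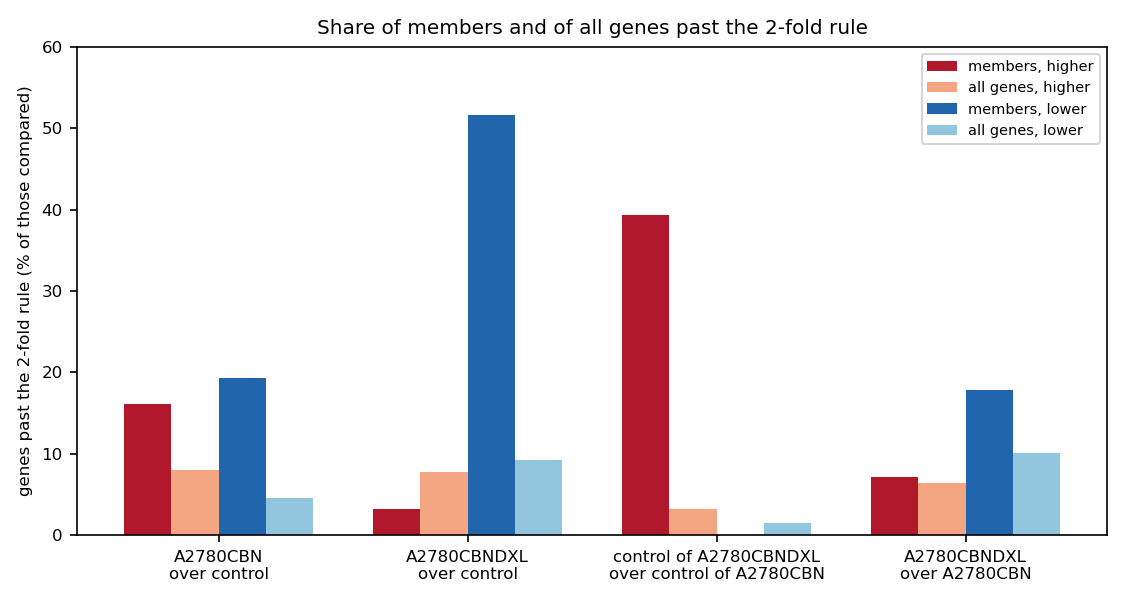
Share of genes past the 2-fold rule (y axis, % of those compared) among the members (dark bars) and among all genes (light bars), higher in red and lower in blue, in each of 4 comparisons. The tallest bars are members lower in A2780CBNDXL (51.6%) and members higher in its control than in the other control (39.3%).

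Exchanging the controls changed the counts. Shares of all genes under the exchange are not given, so these counts show only how the members moved. Set against the control of A2780CBN, 8 members passed the rule in A2780CBNDXL, 3 higher and 5 lower, instead of 17. Of the 17 genes, 15 kept their sign and 7 a 2-fold mean. ADM remained lower at -3.50, HK2 at -2.60, PFKFB3 at -1.29, PDK1 at -1.1 and VEGFA at -1.12. SLC2A1 had a mean of -1.77, but 1 array of that control was lost, so the rule did not count it. The higher members were NDRG1 (2.90), PFKP (1.68) and BNIP3L (1.25). ENO2 turned to 0.26. CA9 turned to 0.67, a value between channels near background. With the control of A2780CBNDXL, A2780CBN had 15 members past the rule, 2 higher and 13 lower, in place of 5 higher and 6 lower. ALDOC turned from 1.34 to -0.47, and P4HA2 came to 0.10. EPAS1 (4.37) and NDRG1 (1.77) remained higher. The number of lower members in A2780CBNDXL thus depended on which culture served as control. The direction in which the ratios of the lines differed also changed. No conclusion is drawn from that change, since the exchange reverses the sign of the difference between the controls by construction.

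**Figure D4:**
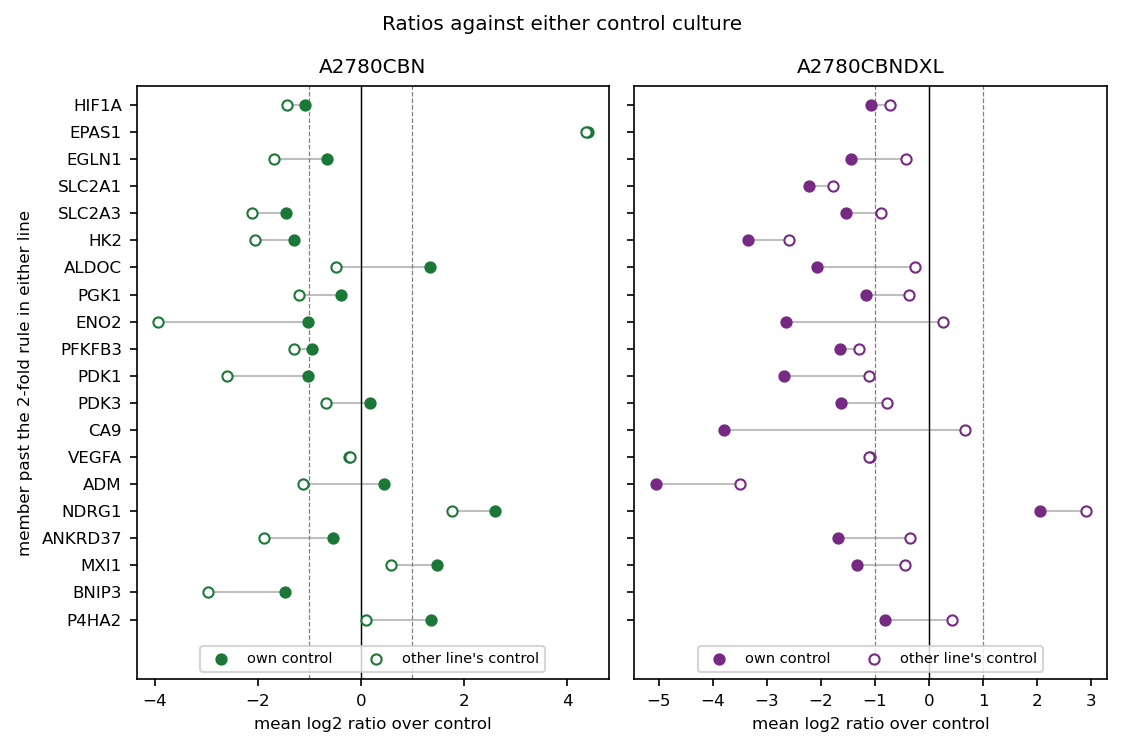
Mean log2 ratio over control (x axis) of the 20 members past the 2-fold rule in either line (y axis), with A2780CBN on the left and A2780CBNDXL on the right, against the line's own control (filled) and the control of the other line (open). A grey line joins both values of a gene, and dashed lines mark 2-fold. In A2780CBNDXL most open symbols lie nearer to 0, whereas ADM remains at -3.50.

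Markers of other cell types were read in the same way. Of 3 endothelial markers, PECAM1 and CDH5 stayed at background on every array and VWF stood above it on 1 or 2 arrays, with signals of 21 to 25. Of 3 leukocyte markers, PTPRC stayed at background, whereas CD3E (71.7 to 77.1) and CD14 (53.4 to 85.5) were above it on all arrays and inside 2-fold in both lines. The summed scaled signal of 4 genes usually listed for fibroblasts (COL1A1, COL1A2, DCN and LUM) was 1726 to 1992 in the control of A2780CBN and 6372 to 7977 in the control of A2780CBNDXL. In the lines it was 681 to 813 in A2780CBN and 7195 to 9203 in A2780CBNDXL. COL1A2 carried most of the sum in the controls and was lower than the control in both lines (-5.67 and -2.81). DCN (2.21 and 3.62) and LUM (2.32 and 2.51) were higher in both lines, and COL1A1 in A2780CBNDXL (2.04, with 0.99 in A2780CBN). In the control of A2780CBN, LUM was above background on no array. It passed the filter in A2780CBN only through the resistant line, at least 2.21-fold higher, and could only be counted as higher. Of these 4 genes 3 (COL1A2, DCN and LUM) were higher in the control of A2780CBNDXL, as the 11 members were. For LUM this was again the only direction that could be counted. The part of these 4 genes in the result was not tested.

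Other genes of the pathway were read from lists that did not include the 36. Of 33 other hypoxia-inducible genes, 29 could be compared in each line. In A2780CBN 2 were higher and 3 lower (median 0.07), and in A2780CBNDXL 1 was higher and 15 were lower (median -1.04). In A2780CBN that is 6.9% higher and 10.3% lower, where all genes gave 8% and 4.55%. For A2780CBNDXL it is 3.45% and 51.7%, where all genes gave 7.7% and 9.2%. VLDLR, a lipoprotein receptor, had a mean of -4.94 in A2780CBNDXL, with signals of 52 and 1591, and 0.07 in A2780CBN. BHLHE41, a clock repressor, had -4.25 there and was at least 6.27-fold lower, since the line was not above background. STC2, a secreted stanniocalcin, had -3.70. LOX, the collagen crosslinking oxidase, went the other way at 3.56 in A2780CBNDXL and 1.98 in A2780CBN. In the control of A2780CBNDXL, 9 of 29 of these genes (31.0%) were higher than in the other control and none was lower. All genes gave 3.17% higher and 1.43% lower.

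Among 31 further genes of glycolysis, glycogen and lactate transport the counts were smaller. In A2780CBN 2 of 20 were higher and 1 was lower, and in A2780CBNDXL 1 of 16 was higher and 3 were lower. These shares (10% and 5%, then 6.25% and 18.8%) lay near those of all genes (8% and 4.55%, then 7.7% and 9.2%) except for the lower genes of A2780CBNDXL, where 3 genes made the count. GBE1, the glycogen branching enzyme, had -2.23 in A2780CBNDXL and 0.95 in A2780CBN. ENO3, the muscle enolase, had -1.70 in A2780CBN and -0.54 in A2780CBNDXL. PCK2, the mitochondrial PEP carboxykinase, had -1.28 in A2780CBNDXL. PDK2, a further pyruvate dehydrogenase kinase, was higher in each line, at 1.21 and 1.07.

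The oxygen-sensing machinery itself held 16 further genes, among them ARNT, VHL and HIF1AN. The only gene of this list past the rule in either line was ARNT2, a partner of the alpha subunits. It had a mean of 5.10 in A2780CBN (4.66 to 5.65 over the arrays), with a signal of 1258 against 36.6, and stayed at background in A2780CBNDXL. In A2780CBN 15 of the 16 could be compared and in A2780CBNDXL 13, with medians of 0.16 and 0.29. The share was 6.67% higher in A2780CBN, where all genes gave 8%. In the control of A2780CBNDXL, 1 of 13 (7.69%) was higher than in the other control and none was lower. All genes gave 3.17% and 1.43%. That gene was CITED2, 1.27 higher in the control and 2.35 higher in A2780CBNDXL than in A2780CBN, with ratios inside 2-fold (-0.20 and 0.88). Of 14 genes of the pentose phosphate and serine branches, none of the 13 compared was counted in A2780CBN. In A2780CBNDXL PGLS, a lactonase of the pentose pathway, was higher at 1.1 and SHMT2, the mitochondrial serine hydroxymethyltransferase, was lower at -1.43. Each was 7.69% of the 13 compared there, near the 7.7% higher and 9.2% lower of all genes.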

How the data were processed

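RNA of A2780CBN and A2780CBNDXL was hybridized with co-cultured control RNA on Agilent two-colour 44k arrays, 4 per line. The deposited values are intensities in 2 channels per spot, per the file headers from Agilent Feature Extraction (versions 10.7.1.1 and 10.7.3.1, hg18 coordinates). The authors' processed signals are background-subtracted, spatially detrended and dye-normalized within each array per the file headers. The submitters' notes also name Partek. Control spots and spots marked as outliers were dropped, spots of a probe were averaged on the log2 scale, reverse arrays were turned over, and forward and reverse arrays were each averaged before their common mean. The members and lists were chosen with earlier results of these data known. All members are accounted for. Array values are given for members that passed the rule in either line or between lines, and of each other list up to 4 genes with the largest ratio among those that passed. Channels were compared between arrays after Aquantile scaling (limma 3.58.1 in R 4.3.3; Python 3.11.15), a comparison chosen after seeing the data. As alternatives, normexp (offset 50) with loess, background subtraction with median centring, other limits of 1.5 and 3-fold and other filters, single slides, arrays left out, the methods' ANOVA and the other line's control were tried. Each line is 1 sample, so the arrays carry no test between cultures, and their number limits the precision. Arrays of the docetaxel-only line were not analysed here.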

Additional observations from a re-analysis of the deposited data

Results flagged for a closer look

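For 5 of the 27 members compared in both lines, every array of A2780CBN lay above 0 and every array of A2780CBNDXL below 0. The share of all genes with this pattern is not given, so the count is not read as an excess. The difference was not tested, since each line is 1 sample. ALDOC had mean log2 ratios of 1.34 in A2780CBN and -2.07 in A2780CBNDXL. ADM had 0.44 and -5.05, MXI1 had 1.47 and -1.33, BNIP3L had 0.93 and -0.34, and P4HA2 had 1.35 and -0.82. Of these, ALDOC, ADM, BNIP3L and P4HA2 were also at least 2-fold higher in the control of A2780CBNDXL than in the control of A2780CBN, and MXI1 was 0.89 higher there on the log2 scale. The exchanged controls in the report do not isolate the part of the controls, since the exchange reverses the sign with which their difference enters.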

How the results depend on the processing

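No paired analysis was possible because each line is 1 sample. With normexp and loess, 4 members were counted in A2780CBN and 11 in A2780CBNDXL, and the medians were -0.0735 in A2780CBN and -0.83 in A2780CBNDXL. The genes that fell short of 2-fold included dim ones (NDRG1 and EPAS1) and brighter ones (HIF1A, PDK1, SLC2A3, MXI1 and PDK3), and the cause was not tested. At a 3-fold limit 2 and 11 were counted. With background subtraction and median centring A2780CBN had 5 higher and 4 lower. Averaging the probes of a gene gave a median of -1.0 in A2780CBNDXL, and leaving out 1 array gave -1.11 to -1.0. With the other line's control 8 members were counted in A2780CBNDXL, and the medians were -0.68 in A2780CBN and -0.42 in A2780CBNDXL. The ratios of 10 members then differed between the lines, 8 higher and 2 lower in A2780CBNDXL. The 2 lower, ADM and MXI1, were also lower among the 12 that differed with their own controls. ENO2, PDK1, ANKRD37 and BNIP3L were among those 12 as lower and were now among the 8 higher. More signal in the control of A2780CBNDXL raises these differences by construction. Among the members counted in a line, the signs of ALDOC in A2780CBN (-0.47), ENO2 in A2780CBNDXL (0.26) and CA9 in A2780CBNDXL (0.67) turned. Members not counted in a line turned as well. Among them were ADM in A2780CBN (-1.12), BNIP3L in A2780CBN (-0.66) and A2780CBNDXL (1.25), and P4HA2 in A2780CBNDXL (0.43). On each slide alone, all 11 and all 17 counted members kept their sign and a 2-fold mean. The ANOVA of the methods with the 2-fold limit counted 11 and 16, all among the same genes. Letting 3 arrays suffice, a choice made after seeing the data, counted 12 and 18. The number of arrays and the signal over background limit the dim genes CA9, EPAS1, ENO2 and NDRG1.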
